A study of Homo sapiens with 60 samples.

Results

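The genes described here encode the proteins of the mitochondrial ribosome, followed over 18 days of differentiation in SH-SY5Y, an established line from a human neuroblastoma whose cells take on neuron-like features in culture, with or without lead (Pb). Members were all rows of the expression table named MRPL or MRPS followed by a number and, for a few, a letter A to C, with a level of at least 1 CPM (reads per 1000000 assigned reads) in at least 3 libraries. In all, 78 rows carried such a name and 77 passed, of 15263 genes that passed among 37334 in the table. By symbol, 48 of the 77 were MRPL genes and 29 were MRPS genes. All dishes were plated from passage 39 of this 1 line, and bulk RNA was taken from 1 dish per replicate. Doses were 0, 0.16, 1.26 and 10 µM Pb, given from day 5 onward and renewed with the medium, and each Pb dose was compared with 0 µM on the same day. Cells were collected on 5 days between day 6 and day 18, with 3 dishes for each of 20 combinations of day and dose. The labels do not say whether dishes were plated on separate occasions.

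The mitochondrial ribosome makes the few proteins that are encoded in mitochondrial DNA, all of them subunits of the respiratory chain and the ATP synthase. Its own proteins are all encoded in the nucleus, made in the cytosol and imported, so they have to be matched to ribosomal RNA that is made inside the organelle. The MRPL symbols mostly name proteins of the large subunit, which forms peptide bonds, and the MRPS symbols those of the small subunit, which reads the messenger RNA. Exceptions are MRPS18A and MRPS30, whose products sit in the large subunit, and MRPS36, whose product is now assigned to the oxoglutarate dehydrogenase complex.

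Promoters of 68 of the 77 genes, 84 sequences in all, were found in a RefSeq table of GRCh38.p14 that holds 250 bases before and 50 bases after a transcription start. They were searched on both strands for 5 short motifs of factors known to act on mitochondrial genes. The YY1 motif AAGATGGC was in 27.4% of the members' promoters and in 3.53% of the 22199 promoters of protein-coding genes. The ETS motif CCGGAAG, the core bound by the GABP factor, was in 38.1% of the members' promoters and in 12.8% of those of protein-coding genes. The shares for promoters of cytosolic ribosomal protein genes were 9.76% for the YY1 motif and 32.9% for the ETS motif. GCATGCGC, 1 arm of the NRF1 site, was in 7.14% of the members' promoters and in 3.74% of those of protein-coding genes. The E-box CACGTG was in 10.7% of the members' promoters and 8.34% of the others, and the ATF4 motif TGATGNAA in 1.19% and 2.69%. Several genes have more than 1 listed start, so promoters of a gene can share bases, and different motifs overlapped in 0 member promoters.

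Below are 3 of these promoters, shown because their genes were, among members with 1 listed start and a match, those with the smallest p-values for the change from day 6 to day 18. MRPL52 lies at chr14:22829637-22829936 on the plus strand and holds the NRF1 arm, 2 YY1 motifs and an ETS motif. MRPS21 lies at chr1:150293611-150293910 on the plus strand with 2 ETS motifs, and MRPL43 at chr10:100987448-100987747 on the minus strand with 1. Capitals mark the motifs on either strand.
MRPL52: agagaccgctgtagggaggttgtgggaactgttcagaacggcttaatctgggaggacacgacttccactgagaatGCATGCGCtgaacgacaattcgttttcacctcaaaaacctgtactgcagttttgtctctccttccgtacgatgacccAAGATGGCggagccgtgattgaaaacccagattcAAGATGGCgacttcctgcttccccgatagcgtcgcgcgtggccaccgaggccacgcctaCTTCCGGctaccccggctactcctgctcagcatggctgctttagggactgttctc
MRPS21: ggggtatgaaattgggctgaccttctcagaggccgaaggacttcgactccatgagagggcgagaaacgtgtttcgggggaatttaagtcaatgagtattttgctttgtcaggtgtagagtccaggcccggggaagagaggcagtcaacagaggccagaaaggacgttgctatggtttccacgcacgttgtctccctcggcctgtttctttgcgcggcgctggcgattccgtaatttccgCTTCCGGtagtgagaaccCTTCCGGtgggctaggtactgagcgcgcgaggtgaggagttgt
MRPL43: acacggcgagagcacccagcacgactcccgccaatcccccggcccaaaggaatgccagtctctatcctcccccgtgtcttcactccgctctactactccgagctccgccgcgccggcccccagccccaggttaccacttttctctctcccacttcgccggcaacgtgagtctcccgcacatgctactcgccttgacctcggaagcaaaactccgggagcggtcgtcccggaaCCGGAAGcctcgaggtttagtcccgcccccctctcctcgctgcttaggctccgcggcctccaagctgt
A match shows only that these letters stand in the window.

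Levels of the members, compared with each other as CPM per kb of the GENCODE v29 transcript, had a median of 30.0 CPM per kb over the 77 genes. MRPS26, a protein of the small subunit with no bacterial counterpart, was highest at 141.2 CPM per kb, followed by MRPS21 at 120.3 and MRPL43 at 101.5. MRPS24 was lowest at 1.85 CPM per kb, MRPL38 was next at 2.31 and MRPL42 stood at 2.53. The value of MRPL42 rests on its GENCODE v29 transcript of 15582 bases, against a median of 1462 bases for the members, and its mean level was 39.5 CPM. MRPS24 was also the member nearest the threshold, with 1 CPM or more in 47 of 60 libraries and a mean of 1.31 CPM. MRPL53, the 1 row that did not pass, had 0 reads in every library, which allows at most 0.0594 to 0.181 CPM by the 3-read limit, for counting error only. In GENCODE v29, 85.7% of the MRPS24 transcript lies on exons of the readthrough gene URGCP-MRPS24 on the same strand, 67.9% of MRPL38 on another gene, and 52.3% of MRPL53 on CCDC142. The 5 members with more than 50% of their transcript on another gene of the same strand (MRPL12, MRPS28, MRPL46, MRPL38 and MRPS24) had a median of 7.001 CPM per kb, against 31.6 CPM per kb for the other 72. Their levels are therefore uncertain. So are those of MRPS18C, with 78.9% of its transcript opposite ABRAXAS1, and MRPS18A, with 56.9% opposite RSPH9, since a strand setting for the counting was not given in the sources used here.

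Depth ran from 16594259 to 50539599 assigned reads per library. Summed markers of noradrenergic neuroblasts were at 5468 CPM or more in every library. Their medians over the libraries of days 6, 9, 12, 15 and 18 were 7210, 6142, 12300, 16220 and 12100 CPM. Summed glial markers were low, with medians of 4.80 CPM on day 6 and 11.2 CPM on day 18. Summed markers of epithelial cells, keratins among them, were between 71.1 and 116 CPM in the 12 libraries of day 18 and between 1.68 and 5.95 CPM in the 48 libraries of days 6 to 15. The names of all day 18 libraries start with another prefix than the rest, and the names do not say what it stands for. Day 18 and this prefix cannot be told apart, while Pb was compared among libraries with the same prefix. In 2 libraries long transcripts were low. The slope of log2 level on log10 transcript length was -0.51 for replicate 1 of day 18 at 0 µM and -0.48 for replicate 3 of day 6 at 10 µM, while the median slope of the 60 libraries was 0.0216. Members have short transcripts, with a median of 1462 bases against 3088 bases for all genes that passed. Many results that rest on these 2 libraries are given with and without them, while totals over several comparisons are given only with them.

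As a whole, the members' share of the reads varied within a limited range. Their levels summed to between 0.355% and 0.464% of the assigned reads in the 60 libraries. The largest difference between any of the 20 group means had a median over members of 0.48 on the log2(CPM + 1) scale, against 0.83 for all genes that passed. The same median was 0.54 for 79 nuclear genes of respiratory chain and ATP synthase subunits and 1.03 for 84 cytosolic ribosomal protein genes. Genes were not matched for level in these medians. That difference was above 1 on the log2 scale for 1 of 77 members, MRPL11, for 3 of the 79 respiratory genes and for 36.3% of all genes. In bulk RNA, fewer cells of a kind and less RNA per cell cannot be told apart. At 0 µM the summed level was 3815, 3911 and 4114 CPM in the 3 libraries of day 6, 4044, 4235 and 4129 CPM on day 9, 4196, 4012 and 3976 CPM on day 12, 3979, 3879 and 4081 CPM on day 15 and 4641, 4176 and 4073 CPM on day 18. The highest of these, 4641 CPM, is replicate 1 of day 18, and the other 2 libraries of that day lay within the range of day 9.

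**Figure D1:**
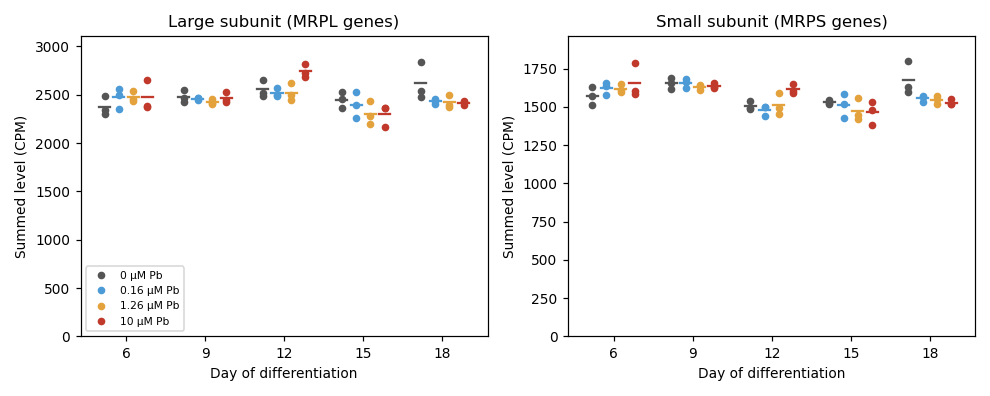
Summed level of the MRPL genes (left) and the MRPS genes (right) in CPM, by day and Pb dose; points are libraries and short lines are means of 3. The sums run from 2169 to 2844 CPM for the MRPL genes and from 1381 to 1798 CPM for the MRPS genes. The highest 0 µM point of day 18 is replicate 1, with 4641 CPM over both panels.

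Under this sum, individual members moved in both directions as differentiation went on, and of the 4 steps between days the one from day 9 to day 12 had the most calls. Values were compared as log2(CPM + 1) with limma, adjusted over all genes, with a threshold of 0.05. On day 12 against day 9 at 0 µM, 12 members rose and 22 fell, that is 44.2% of members against 54.4% of all genes. The balance of rises and falls depended on the scaling. The median of all genes on this step was -0.10 as deposited. With each library rescaled by the median ratio, 23 members rose and 11 fell. Under edgeR 21 rose and 12 fell, and a correction for GC content and length gave 19 and 20. Calls were followed through 5 alternatives, namely rescaling, edgeR, the GC and length correction, leaving all other groups out of the model, and leaving out the 2 libraries low in long transcripts. In all 5, 22 of the 34 kept their call and direction, 11 of them higher and 11 lower.

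MRPL45 (chr17:38297168-38323211), which sits at the exit of the peptide tunnel and holds the ribosome at the inner membrane, fell most. It had 34.8, 31.5 and 31.4 CPM in the 3 libraries of day 12, against 59.6, 60.5 and 53.8 CPM on day 9. No day 12 value reached a day 9 value, and the log2 change was -0.81 ± 0.07 (SE; limma, adjusted p = 4.56e-13).

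MRPL10 (chr17:47823272-47831541) and MRPL11 (chr11:66435075-66438848) belong to the stalk of the large subunit, the arm that receives translation factors. MRPL10 had 93.6, 84.3 and 78.9 CPM on day 12, against 132.5, 120.8 and 113.8 CPM on day 9, a log2 change of -0.51 ± 0.07 (SE; limma, adjusted p = 5.80e-09). MRPL11 had 34.3, 32.3 and 32.7 CPM on day 12, against 45.3, 51.8 and 47.2 CPM on day 9 (log2 change -0.52 ± 0.08 SE; limma, adjusted p = 8.84e-08). The groups did not overlap for either gene. MRPL12, the stalk protein that MRPL10 anchors, had 98.9, 95.9 and 80.1 CPM on day 12, against 81.3, 83.4 and 82.3 CPM on day 9, so its groups overlapped, and it passed the test in 0 of 25 comparisons.

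In the small subunit, MRPS2 had 51.9, 54.3 and 51.9 CPM on day 12, against 74.0, 77.8 and 77.8 CPM on day 9 (log2 change -0.53 ± 0.07 SE; limma, adjusted p = 1.07e-08). MRPS26 fell by 0.44 and MRPS25 by 0.56 on the log2 scale (limma, adjusted p = 6.91e-09 and 5.59e-07). In the other direction, MRPL41, a protein of the large subunit with no bacterial counterpart, had 101.6, 90.3 and 92.9 CPM on day 12, against 57.7, 68.3 and 65.6 CPM on day 9 (log2 change 0.57 ± 0.11 SE; limma, adjusted p = 1.15e-05). MRPL28 and MRPL49 were higher by 0.50 and 0.39, MRPS22 by 0.41, MRPS15 by 0.35 and MRPS36 by 0.36 on the log2 scale, all past the threshold. Every one of these named genes had day 12 libraries that lay apart from those of day 9. This is not separate support, since the genes were named by the smallest p of the same comparison. Over the 77 members, the groups did not overlap for 44.

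**Figure D2:**
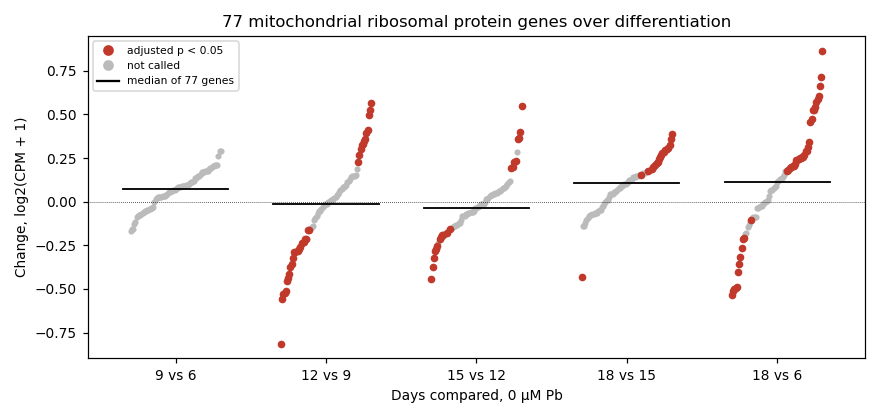
Change of each of the 77 genes on the log2(CPM + 1) scale between days at 0 µM Pb, later minus earlier day; red points passed the threshold and black lines are medians. Rises and falls stand side by side in the step from day 9 to day 12, with MRPL45 lowest at -0.81.

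Before and after this step there was less movement. On day 9 against day 6, 0 of 77 members passed, against 5.14% of all genes. At an unadjusted p under 0.05, 12 members would count, and edgeR also called 0. On day 15 against day 12, 8 members rose and 12 fell (26.0% of members, 37.0% of all genes). With rescaling it was 4 and 15, with edgeR 5 and 13, and the GC and length correction gave 4 and 25. Leaving out 1 library at a time gave 15 to 17 calls, against 20 with all libraries.

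On that step MRPL3, which lies near the peptidyl transferase centre, had 67.4, 63.6 and 61.2 CPM on day 15, against 95.2, 83.3 and 84.1 CPM on day 12 (log2 change -0.44 ± 0.06 SE; limma, adjusted p = 4.72e-08). MRPS25, with no bacterial counterpart, had 19.6, 18.9 and 18.7 CPM on day 15, against 12.6, 12.2 and 13.4 CPM on day 12, and the day 15 values lay close to the 18.8, 19.3 and 19.6 CPM of day 9. MRPS22 fell by 0.38 after its rise on day 12, to a mean of 48.4 ± 2.4 CPM on day 15 (SD, n = 3), against 63.2 ± 5.0 CPM on day 12. MRPS21 and MRPS33 rose by 0.40 and 0.37 on the log2 scale, and MRPL10 by 0.36. MRPS6, MRPS10, MRPL20 and MRPL49 fell by 0.33, 0.28, 0.27 and 0.26. MRPL43 (0.23) and MRPL32 (0.20) also passed as deposited, but lost their calls with rescaling and with GC and length correction (limma, adjusted p up to 0.143 and 0.206).

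On day 18 against day 15, 18 members rose and 1 fell (24.7% of members, 33.3% of all genes). Without replicate 1 of day 18 this was 6 and 3, without replicate 2 of day 15 it was 11 and 1, and in a fit of only these 2 groups it was 2 and 1. With rescaling and with edgeR it was 9 and 2, and the GC and length correction gave 10 and 7. MRPL23, a protein at the tunnel exit, was the fall, with 26.3, 23.7 and 26.1 CPM on day 18, against 32.78, 34.98 and 36.04 CPM on day 15. MRPS10 had 53.5, 48.2 and 45.3 CPM on day 18, against 41.0, 36.3 and 36.4 CPM on day 15, and MRPS2 had 68.6, 67.3 and 60.9 CPM, against 55.0, 53.8 and 50.9 CPM. These 3 were the calls that held in all 5 alternatives. MRPL10, MRPL42, MRPL44 and MRPS33 were higher by 0.30, 0.27, 0.28 and 0.31 and lost the call in the fit of only these groups, with adjusted p from limma between 0.0523 and 0.0692.

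Over the whole course, day 18 against day 6 at 0 µM, 30 members rose and 12 fell (54.5% of members, 66.8% of all genes). Without the 2 libraries low in long transcripts, 18 rose and 14 fell, and the GC and length correction gave 12 and 32, so which direction was more common changed with that correction. In a fit of only these 2 groups 15 rose and 10 fell. For 19 genes the call and direction held in all 5 alternatives, 9 higher and 10 lower.

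Among the 9, MRPL41 had 109.6, 86.5 and 92.1 CPM on day 18, against 51.8, 47.8 and 56.8 CPM on day 6 (log2 change 0.87 ± 0.11 SE; limma, adjusted p = 9.59e-10). MRPL52 had 63.5, 57.4 and 57.3 CPM on day 18, against 33.9, 36.3 and 37.2 CPM on day 6 (log2 change 0.71 ± 0.08 SE; limma, adjusted p = 2.11e-10). MRPS21 had 244.5, 217.4 and 210.0 CPM on day 18, against 150.4, 149.5 and 159.5 CPM on day 6, a log2 change of 0.54. The groups did not overlap for 36 of the 77 members, all of these 3 among them, so this is not separate support. MRPL43, MRPS33 and MRPS36 rose by 0.53, 0.59 and 0.67 on the log2 scale.

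Among the 10, MRPL9, the counterpart of a bacterial protein, had 63.7, 62.6 and 57.1 CPM on day 18, against 85.7, 89.9 and 86.4 CPM on day 6 (log2 change -0.51 ± 0.07 SE; limma, adjusted p = 3.59e-09). On day 15 it had 74.5, 67.4 and 61.0 CPM. MRPL45 had 45.5, 40.9 and 32.4 CPM on day 18, against 52.2, 50.6 and 53.5 CPM on day 6, and fell by 0.40 on the log2 scale. MRPL50 fell by 0.49, MRPS30 by 0.49, MRPS27 by 0.31 and MRPS2 by 0.27.

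Of the 77 genes, 55 passed in at least 1 of the 5 comparisons between days (71.4%, against 86.3% of all genes). At least 1 of the 25 comparisons made was passed by 57 (74.0%, against 89.6% of all genes), and 20 passed in none. The MRPS18 paralogs, relatives that occupy different places in the ribosome, kept their order in every group. At 0 µM, MRPS18B had group means between 45.9 and 58.9 CPM, MRPS18A between 19.9 and 20.8 CPM and MRPS18C between 8.35 and 10.0 CPM. MRPS18A and MRPS18C passed in 0 of 25 comparisons. MRPS18B fell by 0.29 on day 12 against day 9 (limma, adjusted p = 0.000603, and 0.0630 with rescaling) and rose by 0.23 on day 15 against day 12 (0.0103, and up to 0.0665 in the alternatives).

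Other genes of mitochondrial gene expression, given by lists drawn up from the textbook roles of their products, are given for the same days on the deposited scale. Of all genes, 54.4% passed on day 12 against day 9 and 66.8% on day 18 against day 6, in either direction. The median log2 change of all genes on day 12 against day 9 was -0.10. On day 12 against day 9, 76 of 84 cytosolic ribosomal protein genes fell and 1 rose, with a median log2 change of -0.73. Of 79 nuclear genes for respiratory chain and ATP synthase subunits, 28 rose and 12 fell on that step (median 0.12), and 49 rose and 1 fell by day 18 against day 6 (median 0.27). Factors that assemble the mitochondrial ribosome had 13 lower and 2 higher of 26 on day 12 against day 9, with NOA1 lower by a log2 change of -1.15. Mitochondrial aminoacyl-tRNA synthetases had 10 lower and 1 higher of 19 on that step, and translation factors 7 lower and 2 higher of 17. Transcription and maintenance factors of mitochondrial DNA had 6 lower and 1 higher of 11. The mRNAs encoded in mitochondrial DNA rose, 12 of 13 on day 18 against day 6, with a median log2 change of 0.71, against 0.11 for the 77 members and -0.03 for all genes. Of 9 regulators of mitochondrial biogenesis, 7 fell and 2 rose on that comparison, and PPRC1, YY1 and GABPA had the smallest p. The 5 further ribosomal proteins with other symbols, DAP3 and PTCD3 among them, had 2 higher and 0 lower on day 18 against day 6. Summed epithelial, noradrenergic and glial markers also differed between days, as given above, and their part was not tested. With rescaling, where the members' split on day 12 against day 9 turned to 23 higher and 11 lower, 69 cytosolic ribosomal protein genes fell and 2 rose on that step, 37 respiratory genes rose and 10 fell, and 8 assembly factors fell and 3 rose. With the GC and length correction, 28 of 77 respiratory genes rose and 16 fell on day 18 against day 6, and the 5 further ribosomal proteins had 0 higher and 1 lower. The synthetases, the translation factors and the factors of mitochondrial DNA are given on the deposited scale only. So are the mitochondrially encoded mRNAs and the regulators of biogenesis. Their day 18 counts include replicate 1 at 0 µM, which is low in long transcripts. No difference between lists was tested.

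**Figure D3:**
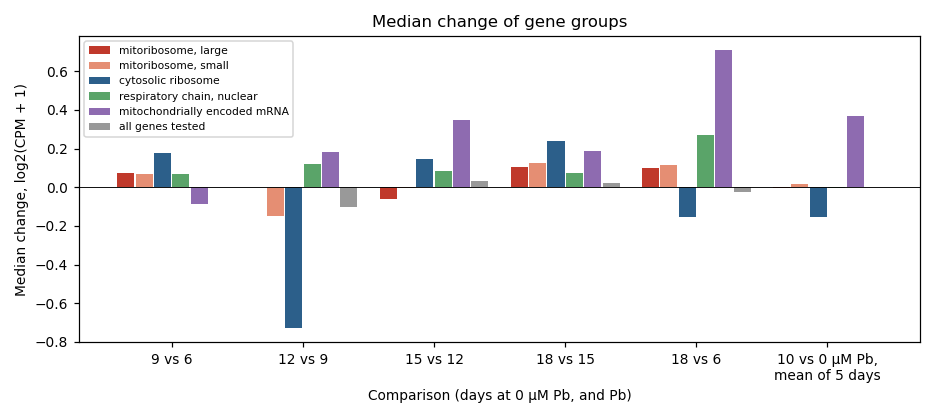
Median log2 change of gene groups in the 5 comparisons of days at 0 µM, later minus earlier, and for 10 µM minus 0 µM Pb averaged over 5 days. The bars of the MRPL genes (large) and the MRPS genes (small), grouped by symbol, stay between -0.15 and 0.13. Cytosolic ribosomal protein genes reach -0.73.

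With Pb, 25 of the 77 members passed in at least 1 of 20 comparisons (32.5%, against 43.4% of all genes), most of them on day 18. At 10 µM against 0 µM, averaged over the 5 days, 4 members fell and 0 rose (5.19% of members, 15.1% of all genes), with a median log2 change of 0.00 over the 77. They were MRPL11 (-0.14 ± 0.03 SE), MRPS15 (-0.11 ± 0.03), MRPS2 (-0.09 ± 0.03) and MRPL10 (-0.09 ± 0.03), with limma adjusted p = 0.00179, 0.0160, 0.0323 and 0.0337. Without day 18, 0 of these 4 passed, with changes of -0.04, -0.06, -0.03 and -0.02, and MRPS31 and MRPS21 were called higher by 0.12 and 0.11. Leaving out 1 library at a time gave 2 to 6 calls, with 2 calls for each of 6 libraries. These were, at 0 µM, the first and second replicates of day 18 and the first of day 15, and, at 10 µM, the first of days 6 and 15 and the third of day 12. At 1.26 µM and 0.16 µM the average over days had 0 calls, where 3.84% and 0.124% of all genes passed. At an unadjusted p under 0.05, 14 and 5 members would count, and edgeR called 0 at both doses. The average was negative for 63 members at 1.26 µM and 61 at 0.16 µM, against 36 at 10 µM. Medians were -0.03 at 1.26 µM and -0.02 at 0.16 µM, against 0.01 for all genes at each. All doses share the same 0 µM libraries, among them replicate 1 of day 18.

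Along the dose steps, the mean slope was called lower for 3 members and higher for 0 (3.90% of members, 15.7% of all genes). MRPL11 fell by 0.04 per dose step (limma, adjusted p = 0.00255), MRPS15 by 0.04 (0.00643) and MRPS2 by 0.03 (0.0456). Without day 18 the count was 0 (10 members at an unadjusted p under 0.05 with all days, and 2 calls by edgeR). In the same libraries 61 of 84 cytosolic ribosomal protein genes fell at 10 µM over the 5 days and 12 of 13 mitochondrially encoded mRNAs rose. Nuclear respiratory chain genes had 1 higher and 2 lower of 79. Of all genes, 15.1% passed in this comparison, in either direction. These list counts are given on the deposited scale with day 18 included, and not for the alternatives.

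The effect of 10 µM differed between days for 18 of 77 members (23.4%, against 21.7% of all genes, moderated F test in limma), and for 9 under edgeR. Without day 18 it was 3, and without replicate 1 of day 18 at 0 µM it was 8. MRPL11 differed most (adjusted p = 1.40e-05), with log2 differences of 0.03, -0.02, 0.12, -0.31 and -0.54 in the order of the days. MRPS21 had 0.19, 0.08, 0.26, -0.09 and -0.29, and MRPL10 had -0.02, 0.00, 0.09, -0.14 and -0.38. MRPS25 had 0.20, -0.18, 0.28, 0.03 and -0.25.

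**Figure D4:**
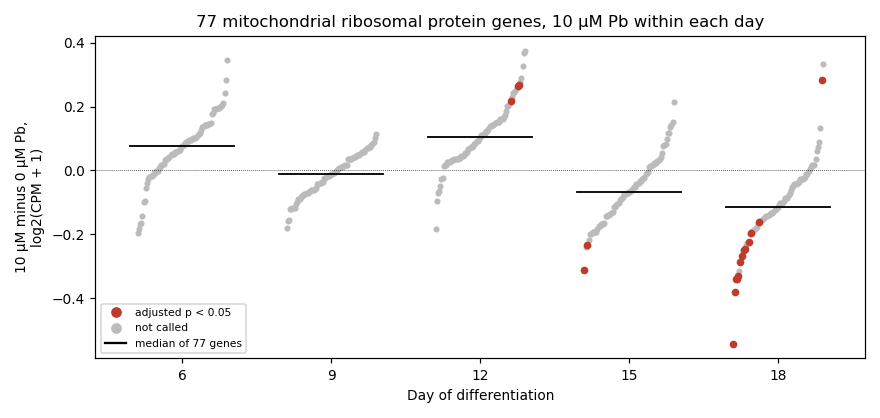
Difference between 10 µM and 0 µM Pb for each of the 77 genes on each day, on the log2(CPM + 1) scale; red points passed the threshold and black lines are medians. Red points appear on days 12, 15 and 18, with MRPL11 lowest on day 18 at -0.54.

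On day 6 most members stood slightly higher with Pb, with a positive difference for 56, 59 and 59 of 77 at 0.16, 1.26 and 10 µM and medians of 0.06, 0.07 and 0.08 on the log2 scale, against -0.00, -0.01 and -0.01 for all genes. The 3 doses of a day share the same 0 µM libraries. Without replicate 3 at 10 µM, which is low in long transcripts, 41 were positive at 10 µM with a median of 0.02, without replicate 1 at 0 µM 49 were positive at 1.26 µM with a median of 0.03, and with the GC and length correction the medians were 0.04, 0.02 and 0.01. On day 6, 0 members passed at any dose, where 0.0% of all genes passed at 0.16 and 1.26 µM and 0.655% at 10 µM. At an unadjusted p under 0.05 there were 7, 13 and 11 members at 0.16, 1.26 and 10 µM, and edgeR called 0 at each dose. The smallest p belonged to MRPS21 at 0.16 µM (log2 difference 0.20; limma, adjusted p = 0.680), MRPL41 at 1.26 µM (0.37; 0.256) and MRPS31 at 10 µM (0.21; 0.153). On day 9, 0 members passed at any dose, where 0.0131%, 0.4% and 1.41% of all genes passed at 0.16, 1.26 and 10 µM, with 0, 1 and 3 members at an unadjusted p under 0.05 and 0 by edgeR. MRPS28 at 1.26 µM (-0.33; limma, adjusted p = 0.753) and MRPS18B at 10 µM (-0.16; 0.502) had the smallest p at those doses.

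On day 12 the median member stood 0.10 higher at 10 µM on the log2 scale, against 0.01 for all genes, and 70 of 77 members had a positive difference. With the GC and length correction 55 were positive and the median was 0.05. Past the threshold were 3, all higher (3.90% of members, 5.37% of all genes). MRPS21 had 163.8, 166.3 and 179.9 CPM at 10 µM, against 149.9, 140.5 and 133.9 CPM at 0 µM (log2 difference 0.26 ± 0.07 SE; limma, adjusted p = 0.0194, and 0.0601 under edgeR). MRPL32, a protein that the m-AAA protease has to cut before it joins the ribosome, had 40.9, 44.4 and 41.9 CPM at 10 µM, against 38.0, 32.5 and 34.8 CPM at 0 µM (adjusted p = 0.0227 in limma, and up to 0.0875 in the alternatives). MRPS23 was higher by 0.22. The groups did not overlap for 28 of the 77 members, these 3 genes among them, so this is not separate support. That share is not given for all genes. The count of calls was 0 without replicate 3 at 0 µM or replicate 3 at 10 µM, and 1 without replicate 2 at 10 µM. At 1.26 and 0.16 µM 0 members passed, where 0.0459% and 0.0197% of all genes did, with 5 and 3 members at an unadjusted p under 0.05 and 0 by edgeR. MRPS33 had the smallest p at both doses (-0.23 and -0.18).

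On day 15 the sign of the median was the other way, -0.07 at 10 µM against 0.03 for all genes, with a negative difference for 55 of 77 members (43, with a median of -0.03, without replicate 2 at 10 µM), and 2 passed as lower at 10 µM (2.60% of members, 5.68% of all genes). MRPL11 had 29.9, 24.8 and 27.4 CPM at 10 µM, against 33.7, 36.2 and 32.7 CPM at 0 µM, with no overlap (log2 difference -0.31 ± 0.08 SE; limma, adjusted p = 0.00607). MRPL43 had 95.1, 89.1 and 107.2 CPM at 10 µM, against 113.6, 108.0 and 120.7 CPM at 0 µM (limma, adjusted p = 0.0468). The groups did not overlap for 18 of the 77 members, these 2 among them. Both calls were lost in the fit of only these 2 groups and without replicate 2 at 10 µM, and 1 was left without replicate 1 or 3 at 0 µM or replicate 1 at 10 µM. At 1.26 µM 0 members passed, where 1.26% of all genes did, with 12 members at an unadjusted p under 0.05, and at 0.16 µM 0 members passed, where 0.0131% did, with 0 members at an unadjusted p under 0.05. By edgeR both counts were 0. MRPL12 had the smallest p at 1.26 µM (-0.27; limma, adjusted p = 0.0805).

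On day 18 a negative difference was found for 65, 67 and 65 of 77 members at 0.16, 1.26 and 10 µM, each with a median of -0.11, against 0.00, -0.01 and -0.05 for all genes. Without replicate 1 at 0 µM, which is low in long transcripts, these were 55, 55 and 48 members with medians of -0.05, -0.06 and -0.05. With the GC and length correction they were 52, 47 and 36, and the median at 10 µM was 0.02. Past the threshold as deposited, 12 members were lower and 1 higher at 10 µM (16.9% of members, 28.9% of all genes). MRPL11 had 24.9, 26.6 and 22.8 CPM at 10 µM, against 38.5, 34.1 and 36.8 CPM at 0 µM (log2 difference -0.54 ± 0.08 SE; limma, adjusted p = 2.36e-07). At 0.16 µM it had 32.7, 32.7 and 33.0 CPM and at 1.26 µM 32.2, 27.9 and 30.6 CPM, so the mean was lower at each higher dose. The 10 µM libraries lay below those of every other dose.

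MRPL10 had 103.5, 102.2 and 106.2 CPM at 10 µM, against 141.2, 147.1 and 120.0 CPM at 0 µM (log2 difference -0.38 ± 0.07 SE; limma, adjusted p = 1.54e-05). MRPS21 had 189.9, 183.2 and 176.1 CPM at 10 µM, against 244.5, 217.4 and 210.0 CPM at 0 µM (log2 difference -0.29 ± 0.07 SE; limma, adjusted p = 0.00187). Thus MRPS21 was lower at 10 µM on day 18 and higher on day 12. These 2 genes and MRPL11 were the calls that held in all 5 alternatives.

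MRPS2 had 45.7, 54.6 and 55.0 CPM at 10 µM, against 68.6, 67.3 and 60.9 CPM at 0 µM, a log2 difference of -0.34. MRPS15 had 41.3, 42.6 and 38.9 CPM, against 55.9, 46.2 and 53.5 CPM, and MRPL45 had 31.6, 29.5 and 31.2 CPM, against 45.5, 40.9 and 32.4 CPM, with log2 differences of -0.33 and -0.34. The groups did not overlap for 24 of the 77 members, these 3 genes among them. This is not separate support, since the 3 were named after their values were seen. Without the 2 libraries low in long transcripts these 3 still passed, together with MRPL11, MRPL10 and MRPS21, and the other 7 did not. Among the 7 were MRPS18B, with 47.1, 51.9 and 49.3 CPM at 10 µM against 64.7, 58.3 and 53.9 CPM at 0 µM, and MRPL35, the 1 member that was higher, with 32.9, 30.7 and 33.6 CPM at 10 µM against 22.2, 29.3 and 28.5 CPM at 0 µM. Summed epithelial markers on day 18 were 75.1, 71.1 and 87.7 CPM at 10 µM, against 80.6, 74.6 and 116 CPM at 0 µM, and their part in these differences was not tested.

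At the lower doses on day 18, 6 members were lower at 1.26 µM (7.79% of members, 12.4% of all genes), with MRPS15 (-0.28) and MRPL9 (-0.23) first, and 4 at 0.16 µM (5.19% of members, 6.34% of all genes), with MRPL22 (-0.37) and MRPS2 (-0.23) first. No member was called at all 3 doses, where 4.02% of all genes were, and 18 were called at 1 or more (23.4%, against 33.7% of all genes). The 3 doses share the same 0 µM libraries, and without replicate 1 of these, 0 members passed at 1.26 µM and 0 at 0.16 µM. Without replicate 2 or 3 of them 11 passed at 1.26 µM, and without replicate 3 9 passed at 0.16 µM. At 1.26 µM 1 passed without replicate 2 of that dose, and at 0.16 µM 0 without replicate 1 or 2 and 1 without replicate 3.

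**Figure D5:**
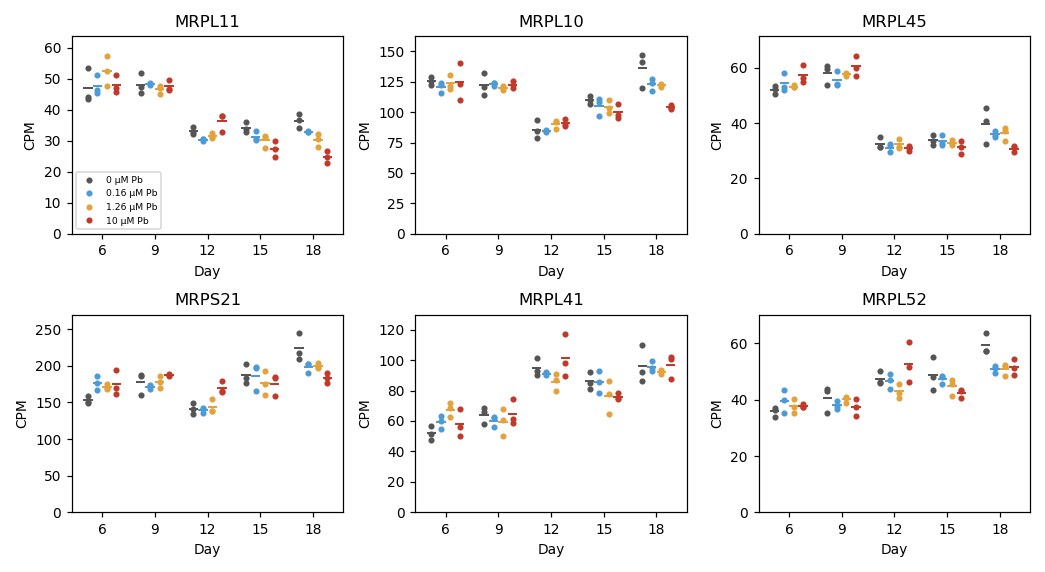
CPM of 6 genes by day and Pb dose; points are libraries, short lines are means of 3. MRPL11, MRPL10 and MRPL45 drop between days 9 and 12, and on day 18 their 10 µM means of 24.7, 104 and 30.8 CPM are the lowest of the 4 doses.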

How the data were processed

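RNA was sequenced from 60 libraries in 20 groups with 3 dishes each. The authors deposited 1 table of CPM. Per the submitters' processing notes, FastQC, MultiQC, STAR, featureCounts and GRCh38 were used; the annotation, the strand setting and versions were not given in the sources used here. All deposited CPM values (100%) were whole multiples of 1 read within 0.01 read, so reads were recovered, 16594259 to 50539599 per library; 3 reads equal 0.0594 to 0.181 CPM, which limits low values.

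Genes with at least 1 CPM in 3 libraries were analysed as log2(CPM + 1) in limma 3.58.1 (R 4.3.3), with 1 mean per group over 60 libraries, 40 residual degrees of freedom, an intensity trend and Benjamini-Hochberg adjustment over 15263 genes (threshold 0.05). All tests were two-sided. The model was tested on simulated data. Alternatives were edgeR 4.0.16 quasi-likelihood tests on recovered reads, a pseudocount of 0.25, no filter, median-ratio rescaling, fits of only the groups compared, a replicate block, leaving out each library or day 18, and a linear dose scale. EdgeR called 7909 genes on day 12 against day 9 and 2169 for the 10 µM mean, where limma called 8303 and 2298. Leaving out 2 libraries low in long transcripts and a GC and length correction with splines were chosen after seeing the data. In the slope, doses were steps 0 to 3.

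Errors are SE of the model for log2 changes and SD over 3 dishes for CPM; p-values measure the spread between dishes of 1 line at 1 passage. The members and lists were chosen with earlier results of these data known. Named genes were those with the smallest p in each comparison by subunit and direction, the highest and lowest levels per length, the members nearest the level threshold, up to 2 per dose and day, 4 for 10 µM by day, the MRPS18 paralogs and MRPL12. MRPS23 on day 12, and MRPS2, MRPS15, MRPS21 and MRPL45 at 10 µM on day 18, were named after their values were seen; positions and promoters are from RefSeq GRCh38.p14, and printed promoters were limited to genes with 1 listed start.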

Additional observations from a re-analysis of the deposited data

Results flagged for a closer look

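The difference between 10 µM and 0 µM Pb varied between the 5 days, by a moderated F test in limma, for the 4 members with the smallest p. The adjusted p was 1.40e-05 for MRPL11, 0.000233 for MRPS21, 0.00134 for MRPL10 and 0.00323 for MRPS25. MRPL11 and MRPL10 were lowest relative to 0 µM on day 18, with log2 differences of -0.54 and -0.38. MRPS21 and MRPS25 were above 0 µM on day 12, by 0.26 and 0.28, and below it on day 18, at -0.29 and -0.25. The day 12 difference of MRPS25 did not pass (limma, adjusted p = 0.0531). Of the 5 alternatives, its day 18 call was kept only with the GC and length correction. Without day 18, the adjusted p was 0.0982 for MRPS21 and 0.337 for MRPL10.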

How the results depend on the processing

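Counts are members called. Leaving out the 2 libraries low in long transcripts gave 2 on day 9 against day 6, 12 on day 18 against day 15, 10 for 10 µM by day, 7, 4 and 6 for 10 µM on days 12, 15 and 18, 1 for 1.26 µM on day 15, and 0 for 1.26 and 0.16 µM on day 18. Fits of only the groups compared gave 3 on day 18 against day 15, 25 on day 18 against day 6, 2 for the 10 µM mean, 5 for 10 µM by day, 1, 0 and 3 for 10 µM on days 12, 15 and 18, and 0 for 1.26 and 0.16 µM on day 18. Rescaling gave 11 on day 18 against day 15, 9 by day, and 1 and 7 for 10 µM on days 12 and 18. EdgeR gave 11, 2 for the 10 µM mean, 9 by day, and 1, 1 and 8 for 10 µM on days 12, 15 and 18. The GC and length correction gave 9 by day, 1 for 10 µM on day 15 and 2 each for 1.26 and 0.16 µM on day 18. With no filter, 10 µM on day 15 had 1 and 0.16 µM on day 18 had 0. Without day 18 the 10 µM mean had 2, the slope 0 and the comparison by day 3. The linear dose scale gave 5. The cause of these differences was not tested.

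Leaving out 1 library at a time gave 0 to 1 on day 9 against day 6 and 29 to 35 on day 12 against day 9. On day 15 against day 12 it gave 15 to 17, on day 18 against day 15 9 to 22, and on day 18 against day 6 32 to 42. It gave 2 to 6 for the 10 µM mean, 0 to 2 for the 1.26 µM mean, 2 to 7 for the slope and 8 to 19 by day. For 10 µM on days 6, 12, 15 and 18 it gave 0 to 1, 0 to 4, 0 to 2 and 6 to 16. On day 18 it gave 0 to 11 for 1.26 µM and 0 to 9 for 0.16 µM.

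Genes that passed in no comparison changed sign near 0. MRPS18A had -0.0552 on day 12 against day 9 with the GC and length correction and 0.0135 on day 18 against day 6 in edgeR, and for the 10 µM mean 0.00985 without day 18, 0.00759 without the 2 libraries and 0.00384 with the correction. MRPS18C had 0.0278 and 0.0124 for the 10 µM mean without day 18 and without the 2 libraries. MRPL12 had 0.0109 on day 18 against day 6 with rescaling and 0.0118 in edgeR, and 0.00149 for the 10 µM mean with the correction. MRPS18B, which did not pass on day 18 against day 6, had -0.11 there with the correction. Leaving out 1 library at a time, MRPS18A ranged from -0.0364 to 0.0880, from -0.164 to 0.104 and from -0.0368 to 0.0167 in those 3 comparisons, MRPS18C from -0.0624 to 0.179 on day 12 against day 9 and from -0.0344 to 0.0240 for the 10 µM mean, and MRPL12 from -0.120 to 0.0909 on day 18 against day 6.

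Libraries of a day with the same replicate number deviated together little on average. The mean correlation of deviations was 0.0280 for the same number, with pairs from -0.356 to 0.532, and -0.0137 for other numbers. The value for other numbers is not independent of the first, since deviations within a group cancel out. Of 60 libraries, 21 correlated best with their own number. Whether dishes were paired cannot be told from these values. With a replicate block the counts were 35, 21, 19 and 41 for day 12 against day 9, day 15 against day 12, day 18 against day 15 and day 18 against day 6, 4 for the 10 µM mean, 17 by day, 13 for 10 µM on day 18, and 5 for 0.16 µM on day 18.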
